A study of Homo sapiens and Mus musculus with 14 samples.

Results

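Chromatin accessibility was examined at 10 genes that encode the NF-kB transcription factors and the proteins that restrain or modify them. The genes are the 5 subunits NFKB1, NFKB2, RELA, RELB and REL, and the 5 genes NFKBIA, NFKBIB, NFKBIE, TNFAIP3 and BCL3, called inhibitors here. For each gene, peaks were taken in the gene body and 20 kb on each side. A peak was called a gene-end peak when it came within 1000 bp of the first or last annotated base of a gene, and such peaks were kept apart from the others. The 10 windows held 61 of 138915 deposited peaks: 20 of 39537 in SMARCAL1 knockout clone 1, 10 of 34572 in SMARCAL1 knockout clone 2 and 31 of 64806 in control cells.

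The series applied ATAC-seq, in which a transposase cuts and tags open DNA, to MDA-MB-436, an established human breast adenocarcinoma line. It compared cells with and without SMARCAL1, an enzyme that anneals DNA strands and remodels replication forks under stress, in connection with innate immune signalling and PD-L1. Clone 1 (genotype SMARCAL1 knockout, batch 1) had 3 libraries, clone 2 (genotype SMARCAL1 knockout, batch 2) had 2 and the control (genotype Control, batch 1) had 3. All groups grew in the same serum-supplemented DMEM, and the labels name no stimulus of NF-kB. Libraries of the mouse melanoma line B16F10 were not analysed here. Each knockout group is a single clone, so what the knockout did and what else sets that clone apart cannot be told apart, and in clone 2 the batch is a further such difference.

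The authors deposited 1 peak list per group, with the replicates merged, so no comparison below has a replicate check or a test, and every interval covers counting error only. Each peak carries a score on the scale of −log10 p, given by the authors' caller, which was used only within a list. Its median over the whole list was 6.07 in clone 1, 11 in clone 2 and 6.26 in control, and the lowest score was 5 or slightly above in each. Peaks were narrower in clone 2, with a median width of 200 bp, against 453 bp in clone 1 and 399 bp in control. Read totals were not used here. SMARCAL1 itself had a gene-end peak in all 3 lists, with scores of 13.1 in clone 1, 13.5 in clone 2 and 16.7 in control, which does not check the knockout. Of cell type markers listed for comparison, gene-end peaks were present in control at 5 of 5 mesenchymal, 3 of 4 epithelial and 1 of 3 luminal genes, and at 1 of 4 leukocyte and 1 of 3 melanocyte genes; ESR1 and GATA3, the estrogen receptor and a luminal factor, had none in any list. Such peaks were absent in both clones at the mesenchymal genes AXL and CD44, at the leukocyte gene CD68 and at KRT8 and KRT18, which share 1 control peak, whereas 15.9% of all genes with a control gene-end peak lacked it in both. The control scores were low at AXL (5.35), CD44 (5.27) and KRT8 and KRT18 (5.76), below the median of the list, and 10.2 at CD68. At VIM and CAV1 (mesenchymal), EPCAM (epithelial), FOXA1 (luminal) and PMEL (melanocyte), by contrast, all 3 lists showed a gene-end peak. The mesenchymal gene ZEB1 showed such a peak in control and clone 1 but not in clone 2. Without a control peak, the epithelial gene CDH1 had a gene-end peak in clone 1, scoring 6.24, close to the median of that list. The leukocyte gene PTPRC had 1 in clone 2, scoring 7.8, below the median of that list. For scale, where control showed none, 5.88% of protein-coding genes were called with such a peak in clone 1 and 1.54% in clone 2. The part of cell state in the results below was not tested.

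NF-kB factors are dimers of Rel proteins that bind short DNA elements called kappaB sites. In resting cells IkB proteins hold most dimers in the cytoplasm. Signals from cytokine receptors or nucleic acid sensors activate the IkB kinases, IkB is degraded and the dimers enter the nucleus. They then switch on inflammatory genes and several of their own subunits and inhibitors, which closes a feedback loop. In breast cancer, constant NF-kB activity is known mainly from lines without hormone receptors.

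The promoter sequences are shown first, since kappaB sites in them are the textbook basis of the feedback. RefSeq promoter windows (build GRCh38.p14, 250 bases before to 50 after a transcription start) matched 8 of the 10 genes, with 13 windows. RELB and NFKBIE had no entry. The 120 bases before 1 start of each of 7 genes follow, 5′ to 3′ on the strand of the gene, with matches to the kappaB consensus in capitals. The last, RELA, is shown as a promoter without a match.
NFKB1, chr4:102501239-102501358, plus strand: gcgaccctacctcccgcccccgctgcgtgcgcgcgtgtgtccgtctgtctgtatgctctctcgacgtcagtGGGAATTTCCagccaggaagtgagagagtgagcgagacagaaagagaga
NFKB2, chr10:102394458-102394577, plus strand: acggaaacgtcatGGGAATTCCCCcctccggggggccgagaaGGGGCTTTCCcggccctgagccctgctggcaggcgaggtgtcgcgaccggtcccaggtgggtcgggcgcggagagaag
REL, chr2:60881454-60881573, plus strand: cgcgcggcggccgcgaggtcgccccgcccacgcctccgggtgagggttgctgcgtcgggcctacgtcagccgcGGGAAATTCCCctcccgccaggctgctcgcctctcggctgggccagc
NFKBIA, chr14:35404750-35404869, minus strand: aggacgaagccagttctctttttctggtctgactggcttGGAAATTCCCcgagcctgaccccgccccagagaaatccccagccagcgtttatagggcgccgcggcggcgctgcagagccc
NFKBIB, chr19:38899849-38899968, plus strand: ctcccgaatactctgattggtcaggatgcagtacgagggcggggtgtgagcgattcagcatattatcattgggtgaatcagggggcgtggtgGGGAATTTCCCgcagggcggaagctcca
TNFAIP3, chr6:137867139-137867258, plus strand: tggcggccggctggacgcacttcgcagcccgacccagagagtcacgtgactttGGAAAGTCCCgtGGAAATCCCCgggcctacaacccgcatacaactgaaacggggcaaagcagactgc
RELA, chr11:65662917-65663036, minus strand: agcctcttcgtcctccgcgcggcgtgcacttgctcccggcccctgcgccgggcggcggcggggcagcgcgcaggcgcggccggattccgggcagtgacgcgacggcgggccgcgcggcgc

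The consensus was searched by name on both strands. It was found in 8 of the 13 windows, at 7 of the 8 genes with an entry, with RELA the exception. Over all windows of protein-coding genes it was in 1450 of 22199 (6.53%). Some of the 14 matches overlap each other on opposite strands. Read in the direction of the consensus, the element GGGAATTTCC was present at NFKB1, REL, NFKBIA and NFKBIB. The element GGGACTTTCC was present at NFKB2, 21 bases before a further start that is not shown, and at TNFAIP3. The match at BCL3, GGGACTTCCC, begins 2 bases after the start. The AP-1 motif TGANTCA was found in 1 window, that of NFKBIB, against 6.15% of all windows. The GC box GGGCGG was in 11 of 13, against 56.3% of all windows.

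All 14 matches lay inside a control peak. Inside clone 1 peaks lay 12, all but those at NFKBIA and BCL3. Inside clone 2 peaks lay 5, those at NFKB1, REL and TNFAIP3. Of the 13 promoter windows, 10 were overlapped by a peak in clone 1 (76.9%), 4 in clone 2 (30.8%) and 13 in control. Over all protein-coding windows the shares were 44.7% in clone 1, 36.4% in clone 2 and 54.4% in control. Of the protein-coding windows with a control peak, which all 13 had, 79.3% were overlapped in clone 1 and 66.2% in clone 2. A kappaB match made little difference to this over all windows: of the windows with a control peak, those with a match were overlapped at 76.1% in clone 1 and 61.6% in clone 2, and those without at 79.5% and 66.5%. A match is a match of letters and says nothing about binding by NF-kB. The 13 windows belong to 8 genes, with 3 at NFKB2, and some matches overlap, so neither windows nor matches are independent. The 4 windows overlapped in clone 2 were 1 each of NFKB1, REL, NFKBIB and TNFAIP3, which is 4 of the 8 genes.

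**Figure D1:**
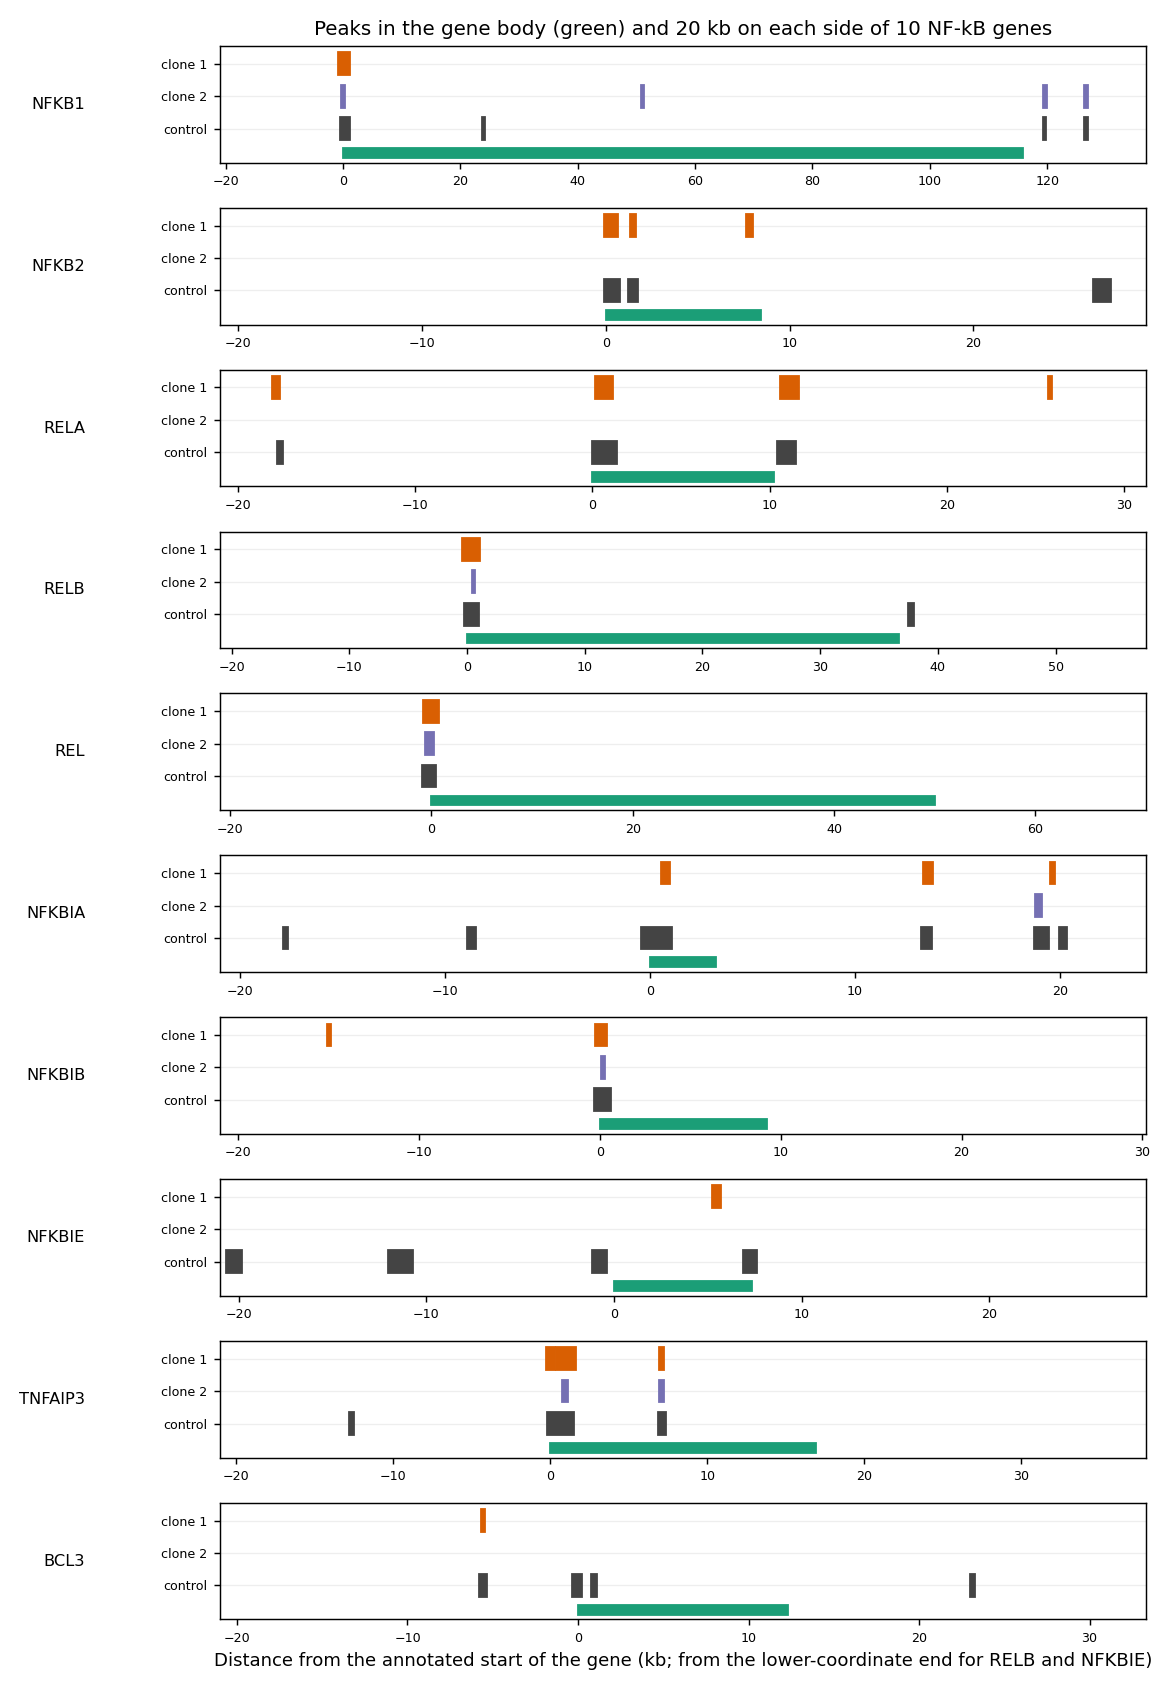
Peaks of the clone 1, clone 2 and control lists (rows of each panel) in the windows of the 10 genes, against distance in kb from the annotated start of the gene, or from its lower-coordinate end for RELB and NFKBIE; the green bar is the gene body and the narrowest peaks are drawn at a minimum width. NFKB2, RELA, NFKBIE and BCL3 have no clone 2 peak, while every gene has a control peak at a gene end.

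In control cells all 10 genes had a gene-end peak, whereas 60.7% of all 20037 protein-coding genes had 1. Clone 1 had a gene-end peak at 8 of the 10 (50.2% of all protein-coding genes) and clone 2 at 5 of the 10 (43% of all). NFKBIE and BCL3 had none in clone 1, and NFKB2, RELA, NFKBIA, NFKBIE and BCL3 had none in clone 2. Of the 12168 genes that had such a peak in control, 21.1% lacked it in clone 1, 30.1% in clone 2 and 15.9% in both. The members' 2 of 10 in clone 1 and 2 of 10 in both are near this background. Their 5 of 10 in clone 2 is a larger share than the background, on a number of genes too small for more than a description. A missing peak does not tell apart fewer copies of the region, fewer cells with it open and less opening in each cell.

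REL, on chromosome 2 (60881574 to 60931612), encodes c-Rel, a subunit best known from lymphocytes. Its start carried the highest-scoring peak of the 10 windows in every list, with scores of 11.8 in clone 1, 18.5 in clone 2 and 17.8 in control. These stood at the 94.8, 88.4 and 95.9 percentiles of their lists. It was the only peak in the REL window in each list. Each control peak was set beside all control peaks of like score, meaning within 10%, and of the same class, gene-end or other. Of those like the REL peak, 99.9% were found in clone 1 and 99.9% in clone 2.

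NFKB1, on chromosome 4 (102501359 to 102617302), encodes the precursor of a subunit that has no activation domain of its own. The peak at its start had scores of 6.27 in clone 1, 12.9 in clone 2 and 9.58 in control. It covered 1931 bp in clone 1, 445 bp in clone 2 and 1671 bp in control. Beyond the 3′ end, 2 further control peaks lay 3.29 kb and 10.5 kb outside the gene, with scores of 7.36 and 5.64. Clone 2 had both, each at a score of 8.66, and clone 1 had neither. Of control peaks of like score and class, 41.2% and 16.6% were found in clone 1. Inside the gene, clone 2 had a peak 51.0 kb from the start (102552303 to 102552469) with a score of 13.4, the 70.4 percentile of its list. The nearest control peak was 26912 bp away and the nearest clone 1 peak 49841 bp away. Over all clone 2 peaks of like score, gene-end or other, 93.8% overlapped a control peak. Of all clone 2 peaks away from gene ends, whatever their score, 14.6% overlapped none. The peak was 167 bp wide, and its score is not recognisably a mean over replicates. A control peak inside the gene, with a score of 5.06, was in neither clone (like peaks 11.5% in clone 1 and 10.5% in clone 2).

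RELA, on chromosome 11 (65653601 to 65663857), encodes the subunit that carries most of the activating function of the common NF-kB dimer. A peak at its start had scores of 5.21 in clone 1 and 6.53 in control, and a peak at its 3′ end 5.01 and 5.94. In both lists the start peak also covered the start of RELA-DT, another annotated transcript, so it cannot be given to RELA alone. Another peak, 17.4 kb upstream in control, had 6.83 in clone 1 and 5.17 in control. Clone 2 had none of the 3 and no other peak in the RELA window. Control peaks of like score and class were found in clone 2 at 36.3% for the start peak, 23.7% for the 3′ peak and 11.3% for the upstream peak.

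NFKB2, on chromosome 10 (102394110 to 102402529), encodes the precursor used by the non-canonical pathway. The first of its peaks, across its annotated start, had scores of 6.8 in clone 1 and 9.16 in control. The second, 1.46 kb into the gene at another start in the control list, had 5.53 in clone 1 and 7.29 in control. Clone 2 had neither, although 82.5% and 49% of control peaks of like score and class were found there. The start peak of NFKB2 had the highest control score among the member peaks absent in clone 2. Near the 3′ end, and within 1000 bp of PSD, clone 1 had a peak with a score of 7.08 that control lacked. The gap to the nearest control peak was 5879 bp, and 85% of clone 1 peaks of like score, gene-end or other, overlapped a control peak. A control peak at PSD and FBXL15, scoring 5.92, was in neither clone (like peaks 39.3% in clone 1 and 23.2% in clone 2).

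RELB, on chromosome 19 (45001464 to 45038192), encodes the partner of the processed NFKB2 product. A peak at its lower-coordinate end was in all 3 lists, with scores of 5.7 in clone 1, 11.1 in clone 2 and 9.03 in control. The clone 2 peak was 178 bp wide, against 1575 bp in clone 1 and 1291 bp in control. At the other end of RELB, next to CLASRP, a control peak with a score of 5.29 was in neither clone (like peaks 27.5% in clone 1 and 13.5% in clone 2).

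**Figure D2:**
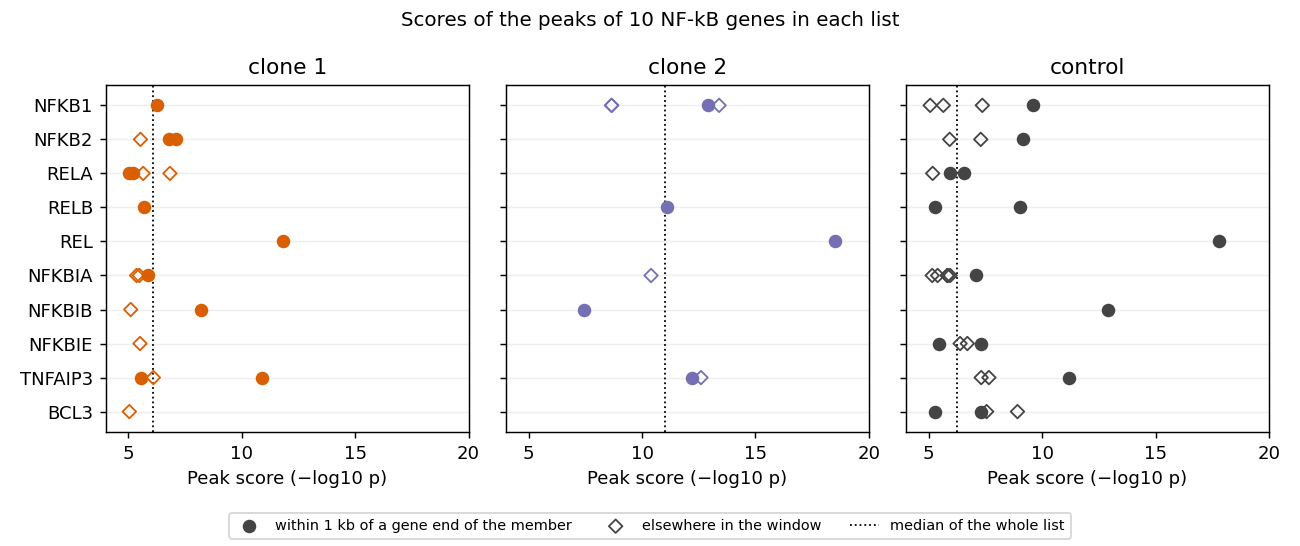
Score (−log10 p) of each peak in the 10 windows, in panels for clone 1, clone 2 and control; filled circles are gene-end peaks of the gene, open diamonds all other peaks, and the dotted line is the median of the whole list. REL has the highest score of the members in each panel, and the clone 2 panel has no points for NFKB2, RELA, NFKBIE and BCL3; levels are not comparable between panels.

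Among the inhibitors, NFKBIB, on chromosome 19 (38899666 to 38908889), encodes IkB beta and had its start peak in all 3 lists. The scores were 8.22 in clone 1, 7.44 in clone 2 and 12.9 in control. The clone 2 peak stood at the 8.09 percentile of its list and the control peak at the 89.6 percentile of its own. The lists differ in length and batch, so these percentiles do not measure a change. The clone 2 score, unlike the control score, is not recognisably a mean over replicates. In clone 1 and control the peak also covered the start of SIRT2, a neighbouring deacetylase gene, so it cannot be given to either gene alone. The clone 2 peak, 171 bp wide, covered neither start and ended before the kappaB match of NFKBIB. A weak clone 1 peak with a score of 5.1, within the flank, had no counterpart in control.

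TNFAIP3, on chromosome 6 (137866349 to 137883312), encodes a ubiquitin-editing enzyme that shuts off signalling upstream of the IkB kinases. Its promoter was open in all 3 lists: clone 1 had peaks at 5.56 and 10.9, clone 2 a peak at 12.2 and control a single peak of 1722 bp at 11.2. A peak 7.1 kb into the gene was in all 3 lists too, with scores of 6.1 in clone 1, 12.6 in clone 2 and 7.65 in control. It was the only control peak away from gene ends in the 10 windows that both clones shared. A control peak 12.4 kb upstream, at 7.31, was in neither clone (like peaks 40.5% in clone 1 and 49.3% in clone 2).

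NFKBIA, on chromosome 14 (35401513 to 35404749), encodes IkB alpha, the fastest negative feedback gene of NF-kB. The control start peak, scoring 7.1, spanned 1518 bp and covered the annotated start. The clone 1 peak, scoring 5.88, spanned 418 bp inside the gene and did not reach the start or its promoter window. Clone 2 had no peak there, and 51% of control peaks of like score and class were found in clone 2. Around the gene control had 5 further peaks, scoring 5.15 to 5.94. Of these 1 was found in clone 1, at 5.48, and another in clone 2, at 10.4. Both lie beyond the 3′ end, 10 kb and 15.5 kb outside the gene in control. A clone 1 peak scoring 5.36 lay between control peaks, 38 bp from the nearest, and counted as absent in control.

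NFKBIE, on chromosome 6 (44258166 to 44265551), encodes IkB epsilon. Control had gene-end peaks on both sides, at 7.31 and 5.45. The first covers the start of the neighbour SLC35B2, a sugar nucleotide transporter gene, so only the second, at the higher-coordinate end, is next to NFKBIE alone. Neither was in clone 1 or clone 2. Control peaks of like score and class were found in clone 1 at 66.9% and 29% and in clone 2 at 54.4% and 14.8%. Neither of the 2 control scores is recognisably a mean over replicates, and the like peaks were not split by this. Clone 1 had a single peak inside the gene, at 5.51, that was 1163 bp from the nearest control peak. A control peak at HSP90AB1, a heat shock protein gene within the flank, with a score of 6.38, was in neither clone (like peaks 49.9% in clone 1 and 32.8% in clone 2). A further control peak, at the edge of the window and scoring 6.7, was overlapped by a clone 1 peak that lies outside the window.

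BCL3, on chromosome 19 (44747705 to 44760044), encodes a nuclear IkB protein that can act as a coactivator. In control a peak at its annotated start scored 5.27 and a second, across the RefSeq transcription start farther into the gene, 7.31. Neither was in clone 1 or clone 2. Of control peaks like the first, 27.4% were found in clone 1 and 13.4% in clone 2, and of those like the second 66.9% and 54.4%. A control peak 10.6 kb beyond the 3′ end, with a score of 8.91, was also in neither (like peaks 64.8% in clone 1 and 74.7% in clone 2). Its score, unlike those of the first and second peaks, is not recognisably a mean over replicates. Support by more than 1 replicate is therefore not shown, and the like peaks were not split by this. The 1 peak of the window that clone 1 shared lay 5.33 kb upstream, with scores of 5.04 in clone 1 and 7.55 in control.

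Summed over the 10 genes, 16 of 31 control peaks were absent in clone 1 (51.6%, exact binomial 95% interval 33.1 to 69.8), against 57.9% of all control peaks. In clone 2 it was 22 of 31 (71%, 52 to 85.8), against 57.1% of all. Absent in both clones were 13 (41.9%, 24.5 to 60.9), against 46.7% of all, and found in both were 6 (19.4%, 7.45 to 37.5), against 31.7% of all. The shares absent in clone 1 and in both turned to above the background when only control peaks at or above the median score were asked about, at 33.3% against 32% in clone 1 and 27.8% against 19% in both; in clone 2 it was 61.1% against 29%. In clone 1 and not in clone 2 were 9 control peaks (29%, 14.2 to 48), at NFKB2, RELA, NFKBIA, NFKBIE and BCL3, against 10.4% of all control peaks. In clone 2 and not in clone 1 were 3 (9.68%, 2.04 to 25.8), at NFKB1 and NFKBIA, against 11.2% of all, which is near that background. Peaks of the same window share a locus and are not independent, so the intervals are narrower than they should be.

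Split by position, 7 of 16 gene-end control peaks were absent in clone 1 (43.8%, 19.8 to 70.1), against 27.7% of all gene-end control peaks, and 11 of 16 in clone 2 (68.8%, 41.3 to 89), against 36%. Of the other 15 peaks, 9 were absent in clone 1 (60%, 32.3 to 83.7), against 64.7% of all such peaks, and 11 in clone 2 (73.3%, 44.9 to 92.2), against 61.9%. Found in both clones were 5 of the 16 gene-end peaks, against 58.1% of all gene-end control peaks, and 1 of the other 15, against 25.7%. Of the 16 gene-end peaks, 14 were those of a member and 2 those of a neighbour. The gene-end peaks in clone 2 lay farther from their background than any other class of peaks absent in clone 1 or clone 2. Among the 16 control peaks whose score is recognisably a mean over replicates, 8 were absent in clone 1 (50%, against 35.5% of all such peaks) and 9 in clone 2 (56.2%, against 33.6%). Absent in both were 7 of 16 gene-end peaks (43.8%, against 21.9%), 6 of the other 15 (40%, against 52.3%) and 6 of 16 recognisable means (37.5%, against 21.2%). Of these means, 5 were found in both clones (31.2%, against 52.1%).

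**Figure D3:**
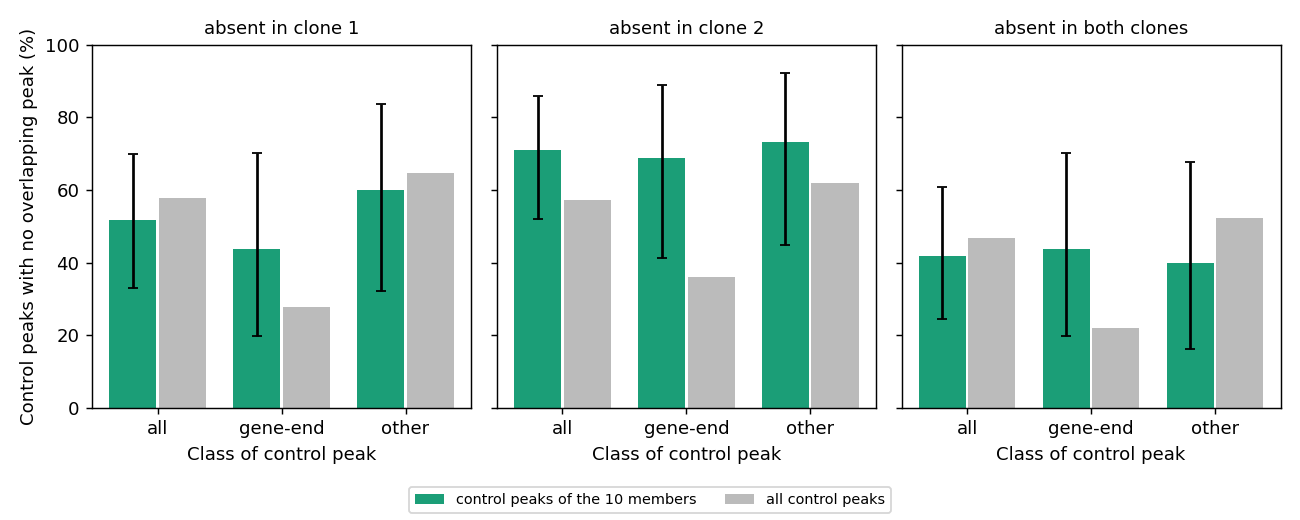
Percent of control peaks with no overlapping peak in clone 1, in clone 2 or in both clones (panels), for the 10 genes (green, with exact binomial 95% intervals) and for all control peaks (grey), split into all, gene-end and other peaks. The widest separation is that of gene-end peaks in clone 2, 68.8% against 36%.

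Over the whole list, control peaks with higher scores were found in the clones more often. When each control peak of the 10 genes was given the share found in its score decile over the whole list, 12.8 peaks were expected in clone 1 and 15 were found, and 13.3 were expected in clone 2 and 9 were found. With gene-end position also taken into account, the expected numbers were 14.8 and 13.5. The splits below give the number expected from the score first and that with gene-end position second. For the subunits, 8 of 13 control peaks were found in clone 1 (5.45 and 6.55 expected) and 5 in clone 2 (5.64 and 5.72). For the inhibitors, 7 of 18 were found in clone 1 (7.39 and 8.22 expected) and 4 in clone 2 (7.66 and 7.78). For the genes on chromosomes 10, 11 and 19 (NFKB2, RELA, RELB, NFKBIB and BCL3), 2 of 13 were found in clone 2 (6.02 and 6.11 expected). In clone 1 it was 8 (5.76 and 7.02 expected). For the genes on chromosomes 2, 4, 6 and 14, 7 of 18 were found in clone 2 (7.28 and 7.39 expected) and 7 in clone 1 (7.08 and 7.75). These chromosomes were grouped after the values were seen. Over whole chromosomes found peaks divided by expected peaks gave 0.81 for chromosome 19 in clone 2, with 1.01 and 1.02 for chromosomes 10 and 11. In clone 1 the same chromosomes gave 1.17, 1.04 and 1.01.

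**Figure D4:**
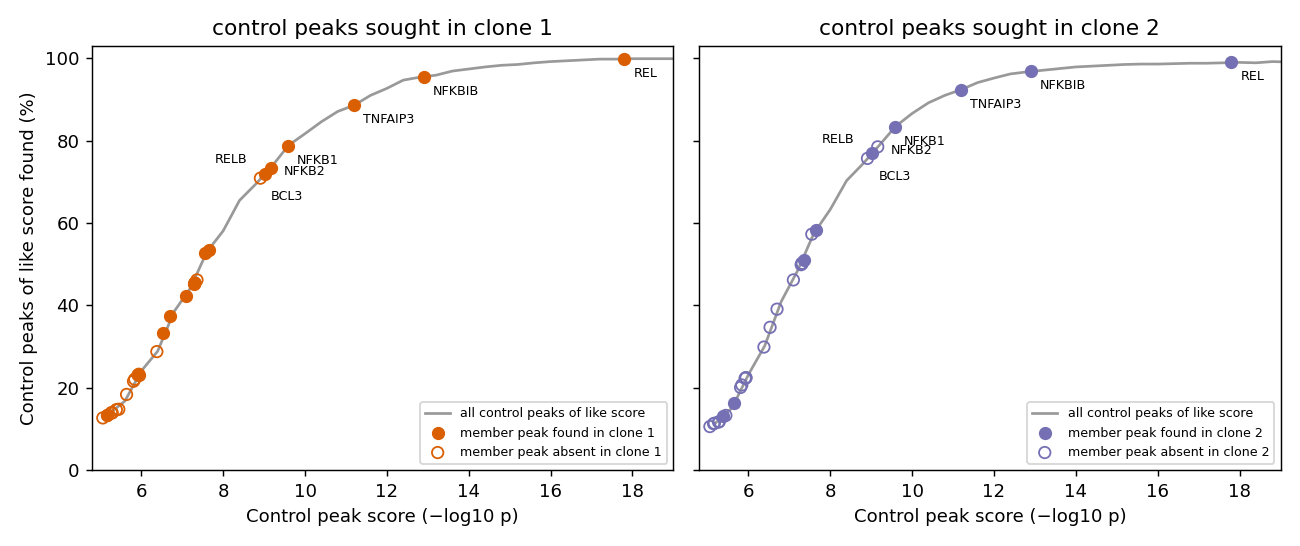
Share of control peaks of like score (within 10%) found in clone 1 or clone 2, against the control score (−log10 p); the grey line is all control peaks, filled points are peaks of the 10 genes that the clone had and open points those it lacked, and genes above a score of 8.5 are named. Peaks of REL, NFKBIB, TNFAIP3, NFKB1 and RELB were found in both clones, the start peak of NFKB2 in clone 1 but not clone 2, and the peak at 8.91 near BCL3 in neither.

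The 4 windows with no clone 2 peak, those of NFKB2, RELA, NFKBIE and BCL3, held 14 of the 22 control peaks absent there. Their control peaks had a median score of 6.62, against 7.1 in the other windows. The stretch without a clone 2 peak reached far beyond the window at both NFKBIE and BCL3. Around NFKBIE it ran for 684 kb of chromosome 6, between clone 2 peaks that end at 43703092 and begin at 44387556, and held 10 clone 1 peaks and 17 control peaks. The control scores inside it were 5.02 to 10.7, with a median of 6.38. Around BCL3 it ran for 839 kb of chromosome 19, between clone 2 peaks that end at 44052004 and begin at 44890834, and held 8 clone 1 peaks and 20 control peaks, with control scores of 5.01 to 9.56. The clone 1 peaks were counted whether or not they overlapped a control peak, so they do not show that clone 1 kept the control peaks. Within the NFKBIE window 1 of 4 control peaks was found in clone 1, and within the BCL3 window also 1 of 4. Over the whole control list, 57.9% of peaks were absent in clone 1. Of all control peaks, 1.91% lay in stretches without a clone 2 peak that held at least 17 control peaks, and 1.34% in stretches with at least 20. Around NFKB2 and RELA the stretches were 187 kb and 96.8 kb, with 3 control peaks each, and 35.5% of all control peaks lay in stretches with at least 3. RELB, on the same chromosome as BCL3, lies beyond the end of that stretch and had its peak in clone 2. Copy number was not measured, read totals were not used and clone 2 was in another batch than the control. Fewer copies of these stretches, less open chromatin in them and a difference of batch, depth or peak calling therefore cannot be told apart. The stretches were looked at after the windows were found to be empty.

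**Figure D5:**
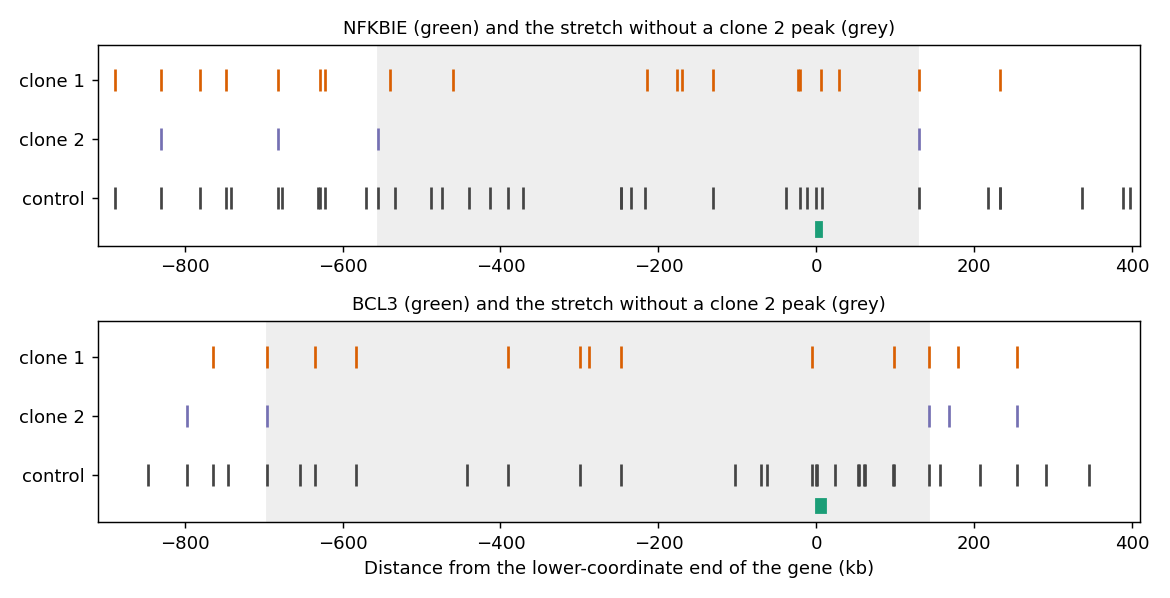
Peaks of clone 1, clone 2 and control (tick marks) around NFKBIE and BCL3, against distance in kb from the lower-coordinate end of the gene (green); grey marks the stretch with no clone 2 peak. The grey stretches of 684 kb and 839 kb hold 10 and 8 clone 1 peaks and 17 and 20 control peaks. The clone 1 peaks are counted whether or not they overlap a control peak.

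Among clone peaks, 5 of 20 clone 1 peaks had no overlapping control peak (25%, 8.66 to 49.1), against 30.7% of all clone 1 peaks. They were those described near NFKB2, NFKBIA, NFKBIB and NFKBIE and a further peak at the start of SIPA1 in the RELA window, with scores of 5.1 to 7.08. By class, 2 of 12 gene-end peaks had no control counterpart, against 7.91% of all such clone 1 peaks, and 3 of 8 other peaks, against 38%. None of the 9 clone 1 peaks whose score is recognisably a mean was among them, against 5.12% of all such peaks. In clone 2 it was 1 of 10 peaks (10%, 0.253 to 44.5), the peak inside NFKB1, against 11.1% of all clone 2 peaks. It was 0 of 5 gene-end peaks (1.64% of all), 1 of 5 others (14.6%) and 0 of 4 recognisable means (4.26%). Between the clones, 14 of 20 clone 1 peaks were absent in clone 2 (70%, 45.7 to 88.1), against 46.7% of all clone 1 peaks, and 4 of 10 clone 2 peaks were absent in clone 1 (40%, 12.2 to 73.8), against 31.5% of all clone 2 peaks.

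The GC content of promoters differed widely among the members, from 51.3% at a RELA start to 80% at BCL3. Over the 12075 protein-coding promoter windows with a control peak, the share overlapped in clone 1 was 75.6% where GC was lowest and 75.2% where it was highest, with windows divided into 5 equal classes, and 81% to 82.5% in the classes between. In clone 2 it was 60.7% and 60.3%, with 68.1% to 71.2% between. The 3 member windows in the class of highest GC belong to RELA, REL and BCL3, of which clone 2 had a peak at REL.

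Of 37 other genes of the pathway, 30 had a control gene-end peak, and 4 of the 30 had none in clone 1 (13.3%, against 21.1% of all genes) and 7 none in clone 2 (23.3%, against 30.1%). The 4 absent in clone 1 were also absent in clone 2: MAP3K14, the kinase that starts the non-canonical pathway, IKBKE, an IkB kinase relative, and the adaptors TRAF5 and TAB1. Their control scores were 5.36, 6.02, 8 and 6.09. The other 3 absent in clone 2 were TRAF3, IRAK1 and TNIP1. The genes of the canonical IkB kinase complex, CHUK, IKBKB and IKBKG, had a gene-end peak in all 3 lists. So had MAP3K7 and TBK1, from the same list of kinases, and 12 of 13 regulators of ubiquitin chains, against 64.7% of all genes with a control gene-end peak. Over the 30 genes it was 23, and 5 of the 10 members. Of the 7 listed genes without a control peak, 1 had a peak in clone 1 (5.88% of all such genes), 0 in clone 2 (1.54%) and 0 in both (0.559%). That gene was MYD88, an adaptor of Toll-like receptors, with a score of 12. Reads at IKBKG can be shared with its near-identical pseudogene copy.

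For comparison, other families of inducible transcription factors were counted in the same way. Of 8 AP-1 factor genes with such a peak in control, 3 lacked it in clone 1 and 5 in clone 2. Of 6 IRF genes it was 2 in clone 1 and 3 in clone 2, and of 5 STAT genes 2 in clone 1 and 2 in clone 2. The shares over all genes were 21.1% in clone 1 and 30.1% in clone 2. Absent in both clones were JUNB, BATF2, IRF5, IRF7, STAT4 and STAT6, which is 2 in each family, against 15.9% of all genes. The NF-kB members, at 2 of 10 in clone 1 and 5 of 10 in clone 2, lay within the spread of these small families in clone 2 and had the lowest share in clone 1; the difference was not tested.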

How the data were processed

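The labels map 8 MDA-MB-436 libraries to 3 groups. For each group the authors deposited 1 peak list with the replicates merged; the tools named in the submitters' processing notes are the aligner HISAT2, the peak caller MACS2 and ChIPseeker, and the human build is hg38. The sources used here do not give their versions or settings. The deposited score of a peak was read as the −log10 of the caller's p-value, because some frequent scores equal Poisson tails at whole pileups (10 in clone 1, 12 in clone 2 and 8 in control, within 0.0001). The background of these tails was fitted to the most frequent score of each list. The matched scores belong to 3828 of 39537 peaks in clone 1, 2665 of 34572 in clone 2 and 4063 of 64806 in control, so this reading is an inference. A score with more digits than the other calls of its list (over 5 decimals, or in clone 2 over 6 significant digits) was taken as a mean over replicates, an inference from the values. Coordinates were counted from 1.

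Genes came from a RefSeq table of GRCh38.p14, which has the hg38 coordinates, with 20037 protein-coding genes on the primary chromosomes; RefSeq promoter windows gave starts and strands. Peaks were compared in Python 3.11.15 (scipy 1.17.1), and an overlap of at least 1 bp counted as found. The overlap code was tested on simulated data. Shares carry exact (Clopper-Pearson) 95% intervals, which cover counting error only. The genes, lists and motifs were chosen with earlier results of these data known. The named genes were all 10 members, genes whose end lies near a peak of a window, and genes of the other lists absent in both clones; others were named after their values were seen. No test across replicates was possible.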

Additional observations from a re-analysis of the deposited data

How the results depend on the processing

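Of 33 alternatives, 30 left the value within its interval or within 1.5 times the count. With an overlap of at least 50% of the peak required, the share of control peaks absent in clone 2 was 90.3% (87.2% of all control peaks) and absent in both 61.3% (58.4% of all); absent in clone 1 it was 64.5% (62.1% of all). The rule is stricter by construction; the part of peak width was not tested. With gene ends taken within 3000 bp, 1 member, BCL3, had none in clone 1, because the clone 1 peak inside NFKBIE then counted. The share over all genes with a control gene-end peak was 21.5% at that setting. Within 500 bp, 3 members had none in clone 1, with NFKBIA added, against 20.9% of all such genes. In clone 2 it was 6 within 500 bp, with TNFAIP3 added, against 31%. The share absent in clone 2 was 61.1% with lists of equal length and 61.1% above the median score, against 31.5% and 29% of all control peaks. In both clones it was 38.9% and 27.8%, against 22.4% and 19%. The share absent in clone 1, 51.6% against 57.9% of all control peaks in the main comparison, was 38.1% with flanks of 10 kb and 63.2% with 50 kb, 44.4% with lists of equal length (38.1% of all) and 33.3% above the median score (32% of all). It lay above the background with 50% overlap, 50 kb flanks, equal lengths and high scores, and so did the share absent in both, which was 52.6% with 50 kb flanks (46.7% of all), so neither has a settled direction against the background. No paired analysis was possible because each group is 1 merged list, and for the same reason no replicate could be left out. The small number of peaks and the unknown depth of each library limit what a missing peak can show.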
